A study of Mus musculus with 10 samples.

Results

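Apc, Tjp1 and Pecam1 are 3 of the 597 named genes spotted on a nylon mouse cDNA membrane, and their 6 spots were part of the 1194 gene spots read on each array. They were found by their printed gene names (adenomatous polyposis coli protein, tight junction protein ZO1, and CD31 or platelet endothelial cell adhesion molecule 1), and they were brought together with their lower signal in transgenic spleen already known. Their differences between the groups are therefore given below as descriptions, with errors and without a test.

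The 3 proteins act at or near contacts between cells, in different ways. APC is the scaffold of the complex that marks beta-catenin for destruction, which keeps Wnt signalling off. It also binds microtubule ends, and beta-catenin itself links cadherins to actin at adherens junctions. ZO-1, the product of Tjp1, is a scaffold under the membrane that ties the transmembrane proteins of tight junctions to actin, mainly in epithelium and endothelium. PECAM-1, or CD31, is an adhesion molecule of endothelial cell borders that platelets, monocytes, neutrophils and subsets of lymphocytes also carry. It passes inhibitory signals through tyrosine motifs in its tail and helps leukocytes to cross vessel walls.

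The RNA was that of splenocytes, a mixture of all cells freed from the spleen, in mice of 6 weeks. The groups were 7 samples of genotype CD22DE12 transgenic and 3 wild-type samples, all on the FVB background. CD22 is an inhibitory receptor of B cells, and the name CD22DE12 stands for a CD22 with a deleted exon. The labels do not name the promoter of the transgene. They also do not say that the arrays are of separate mice, so p-values cover only the spread among the 10 samples, which may be technical.

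Each sample was hybridised as cDNA labelled with 32P to its own membrane, and a spot was read as a mean grey level with the local background around it. Per array, 463 to 550 genes counted as above background, which asked for the spot code 0 on at least 1 of the 2 spots. Transgenic replicates 6 and 7 were read in a second sitting, by the times in the file headers, and stood apart. Their median net signal (spot minus local background) was 4.45 and 4.06 grey levels, where the first sitting had 13.8 to 18.7. Both arrays were transgenic, so the main results are also given without them. Defining markers of spleen cells were detected. On every array, all 5 of B cells, 5 of 6 of T cells and all 5 of myeloid cells passed that rule. So did both of red cell precursors, and the remaining T cell gene, Lck, passed on 9. Over the membrane, 357 of 597 genes (59.8%) passed on every array. Signal of Cd22 was not higher in the transgenic arrays, at 6.66 ± 0.13 (SD, n = 7) on the normalized log2 scale, against 6.90 ± 0.16 (SD, n = 3) in wild type. Whether the spotted Cd22 cDNA detects the transgene is not given, so it checks no label.

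All 3 genes gave detectable signal in spleen. All 20 spots of each gene, 2 on each of the 10 arrays, had the code 0, which held for 236 of the 597 genes (39.5%). The net signal of Apc was 1.60 to 6.11 times the standard deviation of the pixels in the local background (median 3.59), counted over its 20 single spots. For Tjp1 the same ratio ran from 1.81 to 5.22 (median 2.98), and for Pecam1 from 4.21 to 14.2 (median 6.93). The signal of different cDNAs also depends on their length and labelling, so the genes are not ranked against each other.

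Apc was lower in the transgenic arrays than in every wild-type array once the arrays were brought to a common scale. In such bulk samples, fewer cells that carry an RNA and less RNA per cell cannot be told apart. Before any normalization, its net signal in the transgenic arrays was lowest at 3.07 grey levels, with a median of 20.1 and a highest value of 32.8. The wild-type arrays read 34.3, 37.4 and 30.3. The 2 lowest transgenic values, 7.90 and 3.07, were those of the dim arrays of the second sitting, and 2 of the 7 transgenic arrays (replicates 2 and 4) lay above the lowest wild-type array. Mean net signal was 18.8 ± 11.01 in transgenic (SD, n = 7) and 34.0 ± 3.56 in wild type (SD, n = 3), and 24.1 ± 7.43 in the 5 transgenic arrays of the first sitting. The spread between transgenic arrays was thus wide, and in the first sitting the gap was smaller.

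The lower net signal of Apc came with a lower spot signal. The spots themselves averaged 56.8 grey levels in transgenic and 69.4 in wild type, while their local background averaged 38.0 in transgenic and 35.5 in wild type. Spot signal overlapped between the groups, and its transgenic mean in the first sitting was 62.7 ± 12.3 (SD, n = 5), closer to wild type. Divided by each array's median net signal, which takes out the overall brightness of an array, Apc stood at 1.41 ± 0.42 in transgenic (SD, n = 7) and 2.22 ± 0.07 in wild type (SD, n = 3), and the groups did not overlap.

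**Figure D1:**
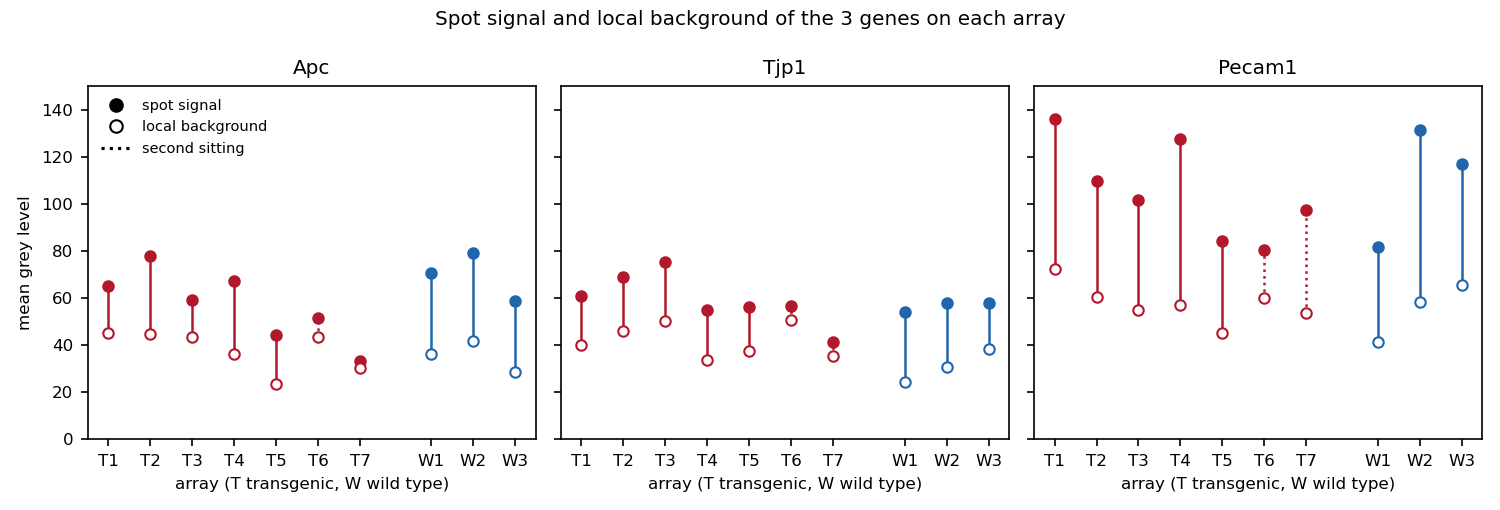
Mean grey level of the spots (filled) and of their local background (open) for Apc, Tjp1 and Pecam1 on each array, with transgenic arrays (T1 to T7, red) left of wild-type arrays (W1 to W3, blue) and dotted lines for the second sitting. The length of a line is the net signal, and for Apc it is shortest on T7 (3.07 grey levels). For Tjp1 the lines of W1 and W2 are the longest, and W3 is shorter than 4 transgenic lines. The local background of Tjp1 averages 31.1 in wild type and 41.9 in transgenic.

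After background correction with an offset of 50 grey levels and quantile normalization, Apc in the transgenic arrays ran from 5.89 through a median of 6.11 to 6.25 on the log2 scale. The wild-type arrays read 6.41, 6.31 and 6.32. The lowest wild-type array stood 0.06 above the highest transgenic one, and the lowest transgenic arrays were replicates 7 and 3. The difference was -0.28 (transgenic minus wild type, SE 0.07, 95% interval -0.44 to -0.12), or a ratio of 0.825.

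Adding 50 grey levels to net signals of this size shrinks a ratio, and without the offset the difference of Apc was -0.95 (SE 0.32, 95% interval -1.64 to -0.27). This is a ratio of 0.516 (0.321 to 0.829), or 48.4% less signal in transgenic, and the groups again did not overlap. In the first sitting alone the difference was -0.26 with the offset and -0.78 without it. The first and the second spot of the gene gave -0.30 and -0.26, so the duplicates showed the same sign. Leaving out each array in turn moved the value with the offset between -0.31 and -0.24.

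Tjp1 was also lower in the transgenic arrays, by less, and its separation of the groups depended on the offset. Net signal in the transgenic arrays had a lowest value of 5.78, a median of 20.7 and a highest value of 25.0 grey levels. The wild-type arrays read 29.8, 27.2 and 19.3. Wild-type replicate 3 lay among the transgenic arrays, 4 of which stood above it. The means were 17.1 ± 7.97 in transgenic (SD, n = 7) and 25.4 ± 5.45 in wild type (SD, n = 3), and the transgenic mean of the first sitting was 21.6 ± 2.47 (SD, n = 5).

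For Tjp1 the lower net signal went with a higher local background and not with a dimmer spot. The spots averaged 59.0 grey levels in transgenic and 56.5 in wild type. The background around them averaged 41.9 ± 7.05 in transgenic (SD, n = 7) and 31.1 ± 7.09 in wild type (SD, n = 3). Array-wide local background was also higher in the transgenic group, with array medians of 38.1 to 54.6 (mean 45.5), against 31.9 to 39.96 (mean 37.0) in wild type. The part of this background in the difference of Tjp1 was not tested beyond the settings given here.

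On the normalized log2 scale with the offset, Tjp1 kept to a narrow range in the transgenic arrays, from 5.99 through a median of 6.03 to 6.07. The wild-type arrays read 6.29, 6.13 and 6.07, so that the groups were apart by a gap of only 0.00063 between wild-type replicate 3 and transgenic replicate 3. The difference was -0.13 (SE 0.04, 95% interval -0.23 to -0.03), or a ratio of 0.914. It rested most on wild-type replicate 1, without which it was -0.07, and it was -0.18 without wild-type replicate 3.

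Without the offset the difference of Tjp1 was -0.44 (SE 0.21, 95% interval -0.90 to 0.02), a ratio of 0.737 (0.534 to 1.02). The groups then overlapped, with 3 transgenic arrays above wild-type replicate 3. In the first sitting alone the values were -0.13 with the offset and -0.38 without it. With no background correction the difference was -0.13 (95% interval -0.37 to 0.11). The duplicate spots gave -0.16 and -0.09, and their net signals lay at most 4.80 grey levels apart in the transgenic arrays, against 11.2 and 12.03 in wild-type replicates 1 and 3. The duplicates were thus farthest apart on the wild-type arrays that set the upper and the lower end of that group.

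**Figure D2:**
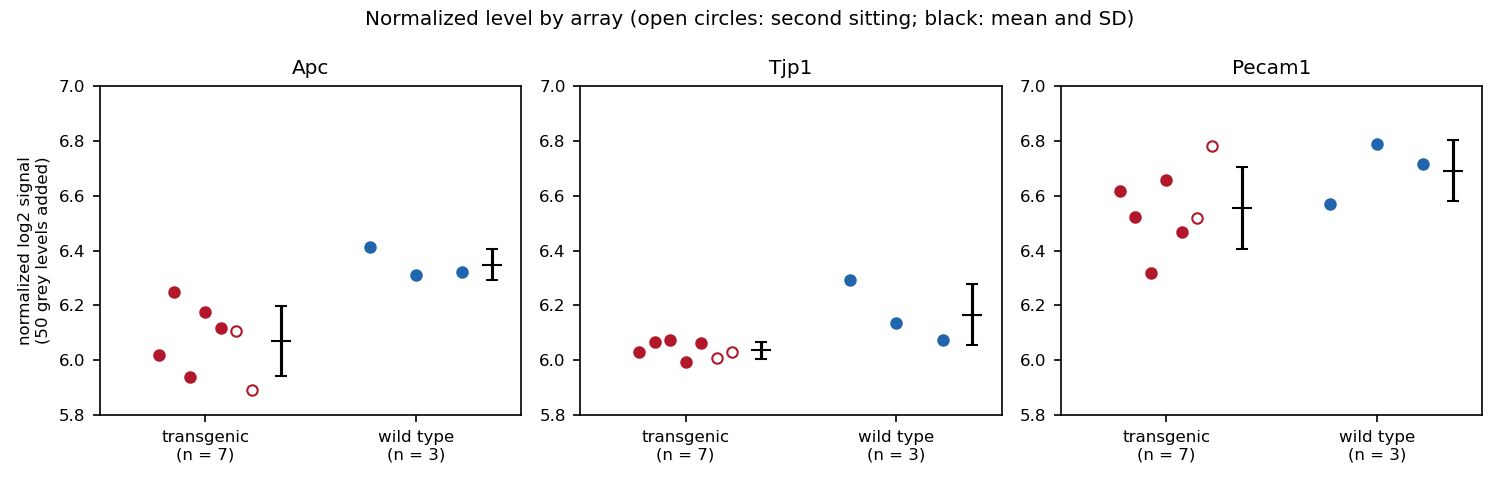
Normalized log2 signal (50 grey levels added) of Apc, Tjp1 and Pecam1 in the 7 transgenic arrays (left in each panel, open circles for the second sitting) and the 3 wild-type arrays (right), with the mean and SD in black. The groups are apart for Apc, touch for Tjp1 at 6.07 and overlap for Pecam1.

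Pecam1 overlapped between the groups on each of these scales. Its net signal in the transgenic arrays had a lowest value of 20.1, a median of 46.9 and a highest value of 70.7 grey levels. The wild-type arrays read 40.5, 73.2 and 51.4, with the lowest below 5 of the 7 transgenic arrays. The means were 47.6 ± 16.5 in transgenic (SD, n = 7) and 55.1 ± 16.7 in wild type (SD, n = 3), a gap smaller than either spread. The transgenic mean of the first sitting was 53.8 ± 13.0 (SD, n = 5), so that most of this gap came with the dim arrays of the second sitting.

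On the normalized log2 scale with the offset, Pecam1 ran from 6.32 through a median of 6.52 to 6.78 in the transgenic arrays. The wild-type arrays read 6.57, 6.79 and 6.71, and 3 transgenic arrays stood above the lowest of them. The difference was -0.14 (SE 0.09, 95% interval -0.33 to 0.06), and without the offset it was -0.30 (SE 0.24, 95% interval -0.82 to 0.23). Both intervals include 0.

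The direction for Pecam1 depended on how the arrays were scaled. Divided by the array's median net signal, it was higher in transgenic, at 4.53 against 3.57 in wild type, and transgenic replicate 7 of the second sitting stood at 10.8. In the first sitting alone that order turned, with 3.28 in transgenic and 3.57 in wild type. Centring on the housekeeping genes of the membrane gave -0.02 and centring on the array median gave -0.06. The difference with the offset was -0.08 without wild-type replicate 2, -0.17 without transgenic replicate 7 (95% interval -0.34 to -0.01) and -0.18 in the first sitting alone, and its range with each array left out was -0.20 to -0.08.

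**Figure D3:**
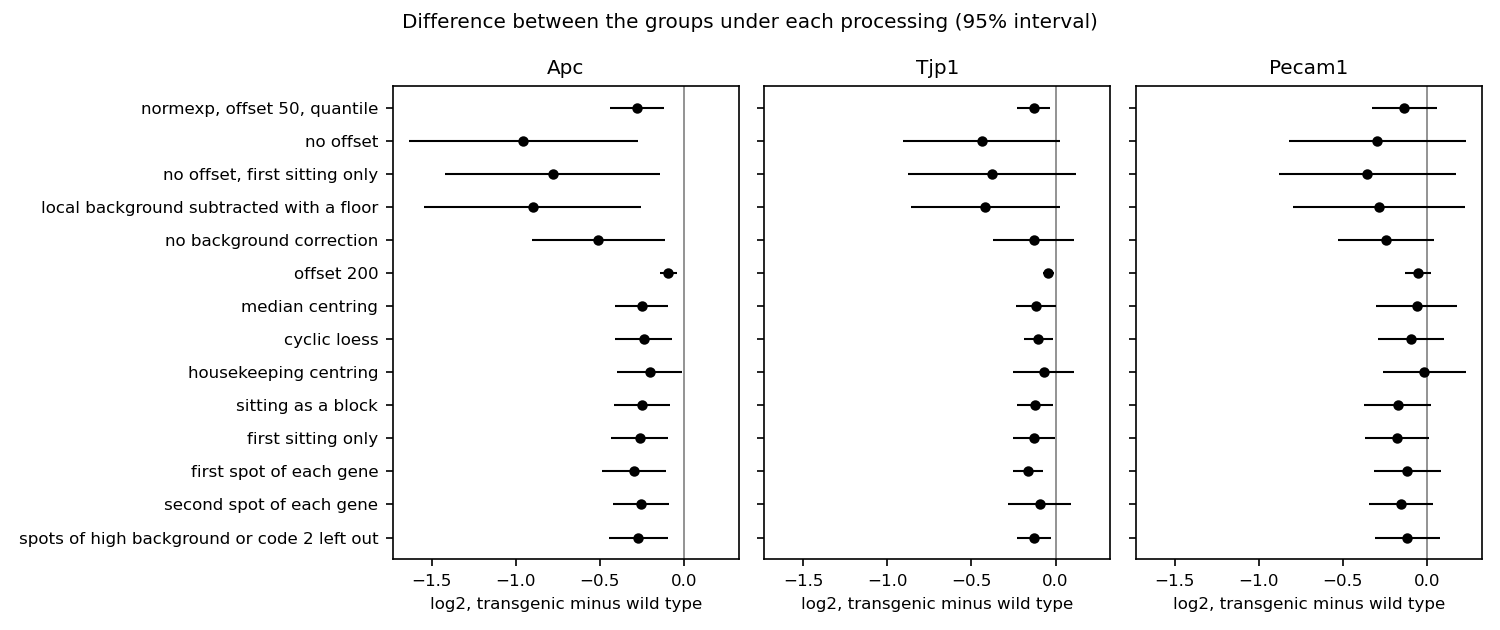
Difference of each gene, transgenic minus wild type, on the log2 scale of each processing, with 95% intervals from limma. All points lie left of 0; for Apc the points range from -0.95 without an offset to -0.09 with an offset of 200 grey levels, and for Pecam1 all intervals drawn include 0.

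Over the whole membrane, no gene passed the test between the groups. With limma and Benjamini-Hochberg adjustment 0 of 597 genes (0%) passed 0.05, the smallest adjusted p was 0.511, and 44 genes (7.37%) had an unadjusted p under 0.05. The groups did not overlap for 2 of the 3 genes described here (Apc and Tjp1) with the offset and for 1 (Apc) without it. Over the membrane, transgenic lay wholly below wild type for 7 of 597 genes (1.17%) with the offset and for 6 (1.01%) without it. The 3 genes were all lower on average, as were 48.2% of the 597 with the offset and 51.3% without it. For Apc and Tjp1 each of the 7 transgenic arrays fell below the mean of wild type, which held for 46 genes (7.71%). Since the genes were chosen with this contrast known, nothing is read from their share. The median size of the difference over all genes was 0.04 with the offset and 0.21 without it.

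On the normalized log2 scale with the offset, no pair of the 3 genes varied together across the transgenic arrays in a way that passed the test. This comparison uses the spread within the transgenic group, which the choice of genes did not use, and it covers 3 pairs over 7 arrays. Two-sided exact permutation tests over the 5040 pairings gave the p-values, with Benjamini-Hochberg adjustment over the pairs. For Apc with Tjp1, r was -0.07 (exact p = 0.875, adjusted p = 0.875) and rho was -0.07 (exact p = 0.906). For Apc with Pecam1, r was -0.12 (exact p = 0.809, adjusted p = 0.875) and rho was -0.07 (exact p = 0.906). A relation of either pair was not detectable with 7 arrays. For Apc with Tjp1, r was 0.20 without replicate 3 or without replicate 4 and -0.22 over the 5 arrays of the first sitting. The sign for Apc with Pecam1 hung on single arrays: r was 0.53 without replicate 7 and -0.70 without replicate 3, and 0.53 over the 5 arrays of the first sitting.

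On the same normalized scale, Tjp1 and Pecam1 tended to opposite directions, without passing the test. Their r was -0.63 (exact p = 0.129, adjusted p = 0.386) and rho was -0.64 (exact p = 0.139, adjusted p = 0.417). Transgenic replicate 4 had the lowest Tjp1 with a high Pecam1, and replicate 3 had the lowest Pecam1 and the highest Tjp1. Leaving out the 2 arrays farthest from the median of the first gene changed r to 0.27 for Apc with Tjp1, to -0.16 for Apc with Pecam1 and to -0.36 for Tjp1 with Pecam1 (n = 5 each). The last relation thus rests in part on replicates 2 and 3. Over the 5 arrays of the first sitting it was -0.84 (exact permutation, adjusted p = 0.25). It passed the test with cyclic loess normalization (r = -0.88, exact permutation with adjusted p = 0.0262) and turned to 0.52 with centring on the housekeeping genes. On net signal before normalization, with the brightness of each array left in, r over the 7 transgenic arrays was positive for each pair. It was 0.79 for Apc with Tjp1, 0.62 for Apc with Pecam1 and 0.63 for Tjp1 with Pecam1, and was not tested.

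As a description over all 10 arrays, with each group's mean taken out, r was 0.17 for Apc with Tjp1, -0.20 for Apc with Pecam1 and -0.54 for Tjp1 with Pecam1. Over the 8 arrays of the first sitting the same values were 0.19, 0.28 and -0.66. The arrays share their normalization and their brightness. Over the 63546 pairs of the 357 genes above background on all 10 arrays, such r had a median of 0.0045, with -0.63 and 0.64 as its 5th and 95th percentiles, and the values of the 3 pairs over the 10 arrays lay between these.

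**Figure D4:**
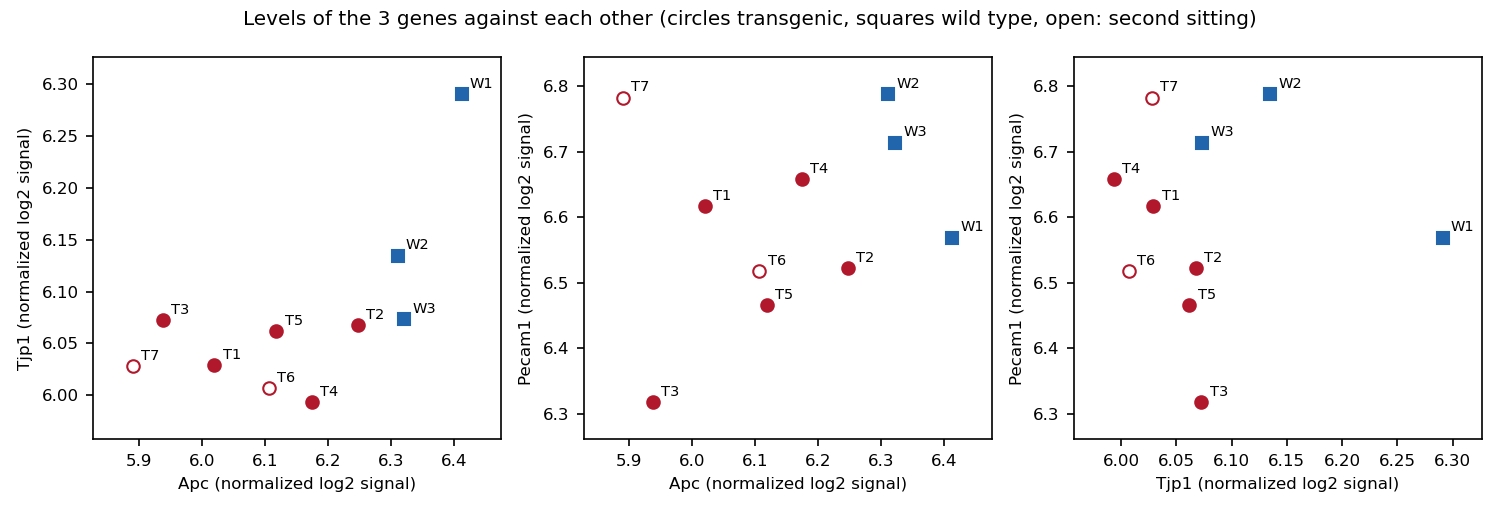
Normalized log2 signal (50 grey levels added) of the 3 genes against each other, 1 point per array, with red circles for transgenic (open for the second sitting) and blue squares for wild type. Within the transgenic arrays Apc shows no slope with Tjp1 or Pecam1, and Pecam1 is lowest on T3 where Tjp1 is highest.

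The genes whose levels followed each of the 3 most closely were different for each. They are ranked by r over the 10 arrays, with group means taken out, among the 357 genes above background on all arrays, and are given as a description. Closest to Apc were Rela, the p65 subunit of NF-kappaB (r = 0.81), Tsg101, an endosomal sorting protein (r = 0.80), and Satb1, a chromatin organiser of T cells (r = 0.75). Closest to Tjp1 were Ubtf, an activator of ribosomal RNA genes (r = 0.93), Mmp14, a membrane-bound matrix protease (r = 0.80), and Csf1, the growth factor of macrophages (r = 0.76). Over the 7 transgenic arrays alone the r of these 3 with Tjp1 was lower, at 0.57, 0.59 and 0.29. Closest to Pecam1 were Foxk1, a forkhead factor (r = 0.93), Jak3, the kinase of cytokine receptors with the common gamma chain (r = 0.84), and Mapkapk2, a kinase downstream of p38 (r = 0.83). They were picked as the highest of 357 genes over 10 arrays, and no test was made.

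Of the genes listed beside Apc for the Wnt pathway and adherens junctions, the 3 that were measured showed no calls. Of 50 genes written for this list 3 were found among the named spots, besides Apc itself, of which 1 was higher and 2 were lower in transgenic. Dvl2, which relays Wnt signals against the APC complex, stood at 6.26 ± 0.11 in transgenic (SD, n = 7) and 6.39 ± 0.08 in wild type (SD, n = 3), a difference of -0.13 (limma unadjusted p = 0.0829, adjusted p = 0.792). Cdh2, the cadherin of neurons and heart muscle, differed by -0.02 and Ctnna2, the alpha-catenin of neurons, by 0.02. Ctnna2 was above background on only 1 of the 10 arrays, so its small difference says little about its level. Neither beta-catenin nor another core member of the destruction complex was in the measured part of the list.

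A further 11 genes of junctions, the cell cortex and Wnt signalling were picked after the names on the membrane were seen. Of these 7 were higher and 4 lower, with a median of 0.02 and none past 0.05 without adjustment. Mapre1, which makes EB1, the microtubule-end protein that APC binds, differed by 0.01 (SE 0.08). Myc and Ccnd1, which beta-catenin can switch on through TCF factors in other tissues, differed by -0.03 (SE 0.08) and 0.05 (SE 0.07). Zyx, an actin-bound protein of adhesion sites, had the largest difference of the 11, at 0.14 (SE 0.10).

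For Tjp1, none of the 21 other genes written for tight and gap junctions, such as occludin, claudins and connexins, was found among the named spots. Among epithelial genes 7 of 24 were measured, of which 3 were higher and 4 lower, with a median of -0.01. None passed 0.05 after adjustment. By limma, 2 of the 7 had an unadjusted p under 0.05, beside 44 of all 597 genes (7.37%). These were both homeobox genes of the gut lineage. Cdx2 averaged 6.04 ± 0.10 in transgenic (SD, n = 7) and 6.22 ± 0.14 in wild type (SD, n = 3), a difference of -0.18 (limma unadjusted p = 0.0266, adjusted p = 0.579). Cdx1 differed by -0.13 (limma unadjusted p = 0.0379, adjusted p = 0.612). Krt19, a keratin of simple epithelium, differed by 0.07 (limma unadjusted p = 0.0783, adjusted p = 0.779). It was near the background, with mean net signals of 5.52 grey levels in transgenic and 2.51 in wild type. It passed the rule for detection on 6 of the 7 transgenic and 0 of the 3 wild-type arrays.

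For Pecam1, 12 of 37 genes of endothelial cells and platelets were measured, of which 7 were higher and 5 lower, with a median of 0.01 and none past 0.05 with or without adjustment. The 3 with the smallest p differed in sign. Vegfa, the growth factor of endothelium, differed by -0.10 (limma unadjusted p = 0.0521, adjusted p = 0.676). Vcam1, an adhesion molecule of activated endothelium and spleen stroma, differed by 0.09 (limma unadjusted p = 0.212). Flt1, a receptor for that growth factor, differed by -0.06 (limma unadjusted p = 0.223). Kdr, Tie1 and Tek, receptors of vessel endothelium, differed by -0.04, -0.02 and 0.01. Above background on all 10 arrays were 8 of the 12 genes, beside 357 of all 597 genes (59.8%). Plat, a plasminogen activator of endothelium, was among the rest of the 12.

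**Figure D5:**
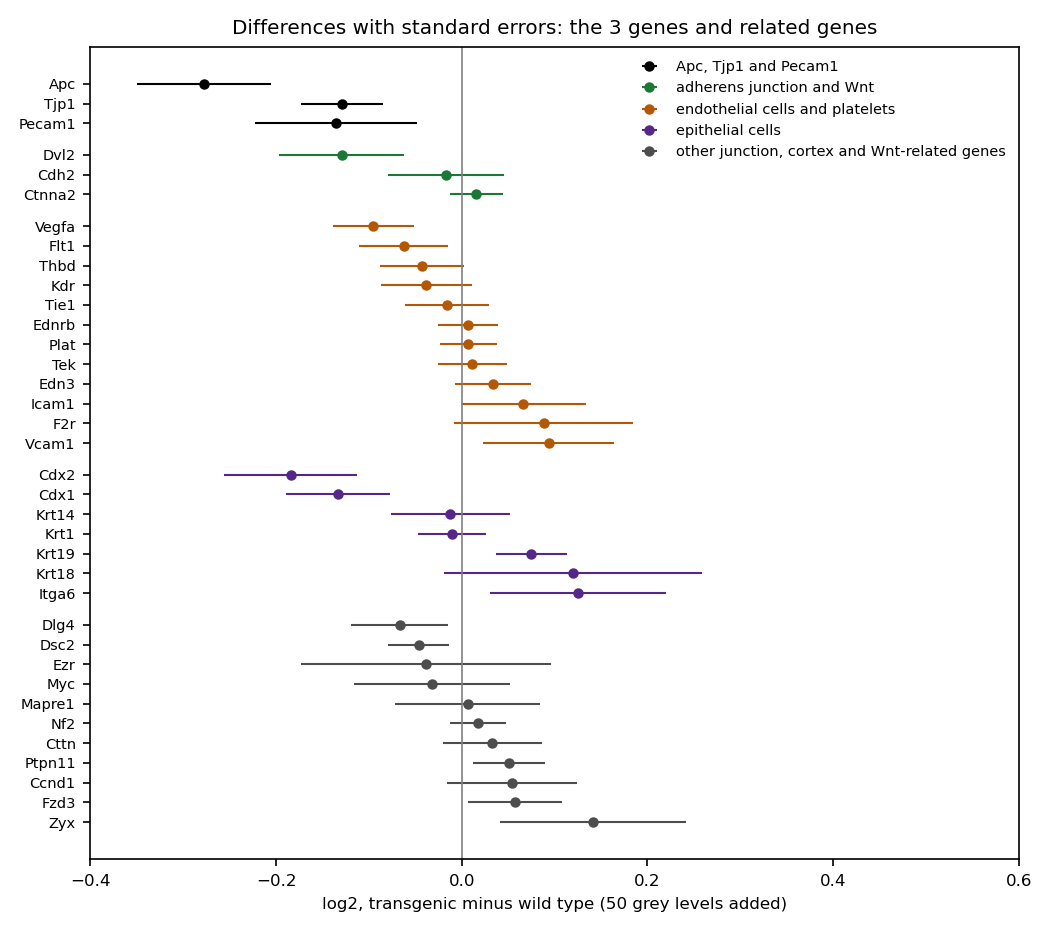
Difference between the groups on the normalized log2 scale (50 grey levels added), transgenic minus wild type, with standard errors, grouped by colour. Drawn are the 3 genes, the measured genes of the adherens junction and Wnt, endothelial and platelet, and epithelial lists, and the 11 further genes. The B cell, T cell, myeloid and red cell precursor lists are not drawn. Apc lies farthest to the left at -0.28. The genes of each list drawn spread to both sides of 0, from Cdx2 at -0.18 to Zyx at 0.14.

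The 4 lists together held 22 measured genes, 11 higher and 11 lower, with a median of -0.0019, beside 309 higher and 288 lower and a median of 0.0018 over all 597 genes. After adjustment 0 of the 22 passed, and 2 had an unadjusted p under 0.05, beside 7.37% of all genes. The 9 housekeeping genes were 4 higher and 5 lower, with a median of -0.08.

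Levels of other cell markers are given beside these results; no gene of these lists passed adjustment, and the groups' list means overlapped. All 5 B cell genes measured, of 11 written, were lower in transgenic, with a median of -0.13, beside 48.2% lower over all genes. Of these, 3 had an unadjusted p under 0.05 by limma, Cd22 among them, beside 7.37% of all genes. The mean level of the B cell list ran from 6.37 to 6.59 in transgenic and from 6.51 to 6.74 in wild type, and its summed net signal from 128 to 303 in transgenic and from 267 to 305 in wild type. Of the T cell genes 4 of 6 were lower, with list means of 6.06 to 6.18 in transgenic and 6.14 to 6.18 in wild type. Of the myeloid genes 4 of 5 were higher, with list means of 6.52 to 6.75 in transgenic and 6.46 to 6.58 in wild type. Among them 1, Csf2ra (0.12), had an unadjusted p under 0.05 by limma. Both red cell precursor genes were higher. No T cell or red cell precursor gene had an unadjusted p under 0.05. The endothelial and platelet list had means of 5.91 to 6.00 in transgenic and 5.93 to 5.98 in wild type, with summed net signal of 55.7 to 231 in transgenic and 156 to 226 in wild type. The part of these cell types in the differences of Apc, Tjp1 and Pecam1 was not tested.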

How the data were processed

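Membranes of 10 splenocyte samples were read to deposited intensity values: per the file headers, the mean grey level of each spot and of its local background, not normalized. Spot codes 0 and 2 are not explained in the sources used here, and neither are exposure and linearity. Precision is limited by the number of arrays (7 and 3).

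Genes were taken by printed name and given symbols by hand; 63 of 63 symbols used were in the RefSeq table of GRCm38.p6, from which no coordinate was taken. The 126 unnamed spots served only to fit the background. Background was corrected by normexp (offset of 50 grey levels), quantile normalization followed, and duplicate spots were averaged on the log2 scale. limma 3.58.1 in R 4.3.3 (lmFit, eBayes, two-sided, no filter) was fitted over all 597 genes. Correlations used scipy 1.17.1, and tables and plots pandas 2.3.3 and matplotlib 3.10.9 in Python 3.11.15. The steps were tested on simulated data.

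The members and gene lists were chosen with earlier results of these data known. Named genes are the members, genes of the lists (the 3 of smallest p in each always), the 3 genes most like each member, and the housekeeping genes as a group. The 11 further genes, and the setting without an offset in the first sitting, were added after the data were seen. The authors' table of processed values was not used, since its identifiers match no column of the spot files. Alternatives covered background, offset, scaling, dim genes, sitting, single spots and each array left out.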

Additional observations from a re-analysis of the deposited data

Results flagged for a closer look

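Kdr, the main receptor for VEGF on endothelium, had 1 transgenic array far from the other 6 on the normalized log2 scale, transgenic replicate 3 at 5.81. Of 42 values searched for such an array 1 was found, where chance gives about 1 in 20 groups, or 2.1. The 3 wild-type arrays were too few to be searched.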

How the results depend on the processing

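The differences of Apc, Tjp1 and Pecam1 stayed below 0 under all 14 other settings and with each of the 10 arrays left out, but their sizes depended on the offset, the background and the scaling. For Apc, Tjp1 and Pecam1 in this order, they were -0.95, -0.44 and -0.30 with no offset, -0.78, -0.38 and -0.35 with no offset in the first sitting, and -0.90, -0.42 and -0.29 with local background subtracted to a floor. An offset of 200 grey levels gave -0.092 for Apc and -0.043 for Tjp1, and no background correction gave -0.51 for Apc. Centring on housekeeping genes gave -0.07 for Tjp1 (95% interval -0.25 to 0.11) and -0.02 for Pecam1. With 1 array left out they ran from -0.31 to -0.24, from -0.18 to -0.07 and from -0.20 to -0.08. The cause of these shifts was not tested, apart from the offset, which shrinks differences by its construction.

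By limma, 0 of 597 genes passed after adjustment in every setting, and 0 of the 22 list genes. Without adjustment 44 genes had p under 0.05 (65.9% lower in transgenic), against 28 with median centring (14 lower), 24 with centring on housekeeping genes (16.7% lower), 33 with no offset (51.5% lower), 32 with no background correction (78.1% lower), 40 with no offset in the first sitting (20 lower), 51 in the first sitting (54.9% lower), and 30 to 49 with 1 array left out.

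The correlations of Apc had no settled sign. With Tjp1, r turned to 0.55 without background correction, 0.32 with housekeeping centring, 0.50 on the second spots and 0.38 without spots of high background or code 2, and ran from -0.47 to 0.20 with 1 array left out. With Pecam1, r turned to 0.27 without background correction, 0.022 with median centring, 0.15 with cyclic loess, 0.36 with housekeeping centring, 0.53 in the first sitting, 0.61 there without an offset and 0.0088 without spots of high background or code 2, and ran from -0.70 to 0.53 with 1 array left out. For Tjp1 with Pecam1, r was -0.88 with cyclic loess (exact permutation, adjusted p = 0.0262), 0.52 with housekeeping centring, and -0.76 to -0.45 with 1 array left out; adjusted p over its other settings did not pass 0.05. The cause was not tested.

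No paired analysis was possible because the titles of the transgenic samples carry no replicate numbers shared with wild type.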
